A study of Homo sapiens with 9 samples.

Results

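The genes described here are the integrin and laminin chains, chosen by symbol: every entry of the deposited table named as an integrin alpha chain, as an integrin beta chain from ITGB1 to ITGB8, or as a laminin alpha, beta or gamma chain. They are 37 of the 27800 symbols in the table, made up of 17 integrin alpha, 8 integrin beta and 12 laminin chains. RNA was sequenced from PANC-1, an established human pancreatic tumour cell line that grows as an epithelial-type monolayer, with 3 libraries at each of day 0, day 2 and day 14 of culture short of nutrients and oxygen. The medium was DMEM with 2.5 mM glucose, fetal calf serum at 0.5% and amino acids at 20% of their standard level. The labels give this medium for all 9 samples, day 0 included, and give no other treatment, so what the day 0 cells had been grown in was not stated. The deposited columns of all 9 samples carry the label WT. No culture kept undeprived to day 2 or day 14 is among the samples, so deprivation and time in culture cannot be told apart. The labels do not say whether the 3 libraries of a day came from separate cultures, so p-values measure the spread between the samples as given, and that spread may be technical.

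Integrins are the main receptors by which cells hold on to the matrix around them. Each is a pair of 1 alpha and 1 beta chain, and the alpha chain largely sets the ligand: laminin, collagen, or proteins with an Arg-Gly-Asp motif such as fibronectin, vitronectin and latent TGF-beta. Laminins are the large cross-shaped proteins of basement membranes, each built from 1 alpha, 1 beta and 1 gamma chain. LAMA3 and LAMB3 encode the alpha and beta chains of laminin-332, the anchoring laminin of epithelia, and LAMA5 pairs with LAMB1 or LAMB2 and LAMC1 in the laminins of mature basement membranes. Pancreatic ducts rest on such a membrane, and carcinoma cells that invade must attach to it and cross it.

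Levels are TPM, a unit of transcript abundance obtained by dividing a gene's reads by transcript length and scaling each library to the same sum, so levels of different chains can be set side by side within a library. Changes are differences of log2(TPM + 1), which understate the change of low genes, with a standard error from limma. A gene was called where its Benjamini-Hochberg adjusted p over all tested genes was under 0.05. Of the 37 chains, 23 reached 1 TPM in at least 3 of the 9 libraries and were tested among 14144 genes. In the 9 libraries fitted together, the median change of all tested genes was 0.23 at day 2 against day 0, 0.44 at day 14 against day 0 and 0.24 at day 14 against day 2. Removing a trend on transcript length moved these medians to 0.03, 0.01 and 0.01. That setting centres the deviations of each library near 0 whether or not length matters, so its medians do not bear on length. Calls made with the length trend removed include this shift. The changes of the chains are to be set against the median of all tested genes in the same setting.

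Day 0 replicate 2 stood apart from the other 8 libraries, and most chains were low in it. Its correlation with day 0 replicates 1 and 3 over tested genes was 0.870 and 0.875, while those replicates correlated at 0.972 with each other. In it 23.8% of the TPM fell to ribosomal protein genes, and in the other libraries 10.2% to 14.8% did. Of the 23 tested chains, 21 were lower in it than in both other day 0 libraries, ITGAE was higher and LAMA4 lay between them. The share of all tested genes lower in it than in both was not counted. Their median difference from the mean of those libraries was -0.58 on the log2 scale. The summed integrin level was 434 TPM in day 0 replicate 2, against 913 to 1236 TPM in the other libraries, and the summed laminin level was 89.9 TPM, against 261 to 381 TPM.

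Above 1000 nucleotides the shortfall moved with transcript length. Over all tested genes, the median difference of this library from the mean of the other day 0 libraries was 0.16 on the log2 scale for genes whose longest transcript ran from 1000 to 2000 nucleotides. It was -0.24 for shorter genes, -0.44 for 2000 to 4000 nucleotides, -0.85 for 4000 to 6000 and -1.23 above 8000. The longest transcripts of the tested chains ran from 3784 to 11426 nucleotides, with a median of 5674, against 3383 for all tested genes. The median difference of the chains was -1.24, against -0.58 for all tested genes. Its part in the results on single chains is given by values with and without this library.

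**Figure D1:**
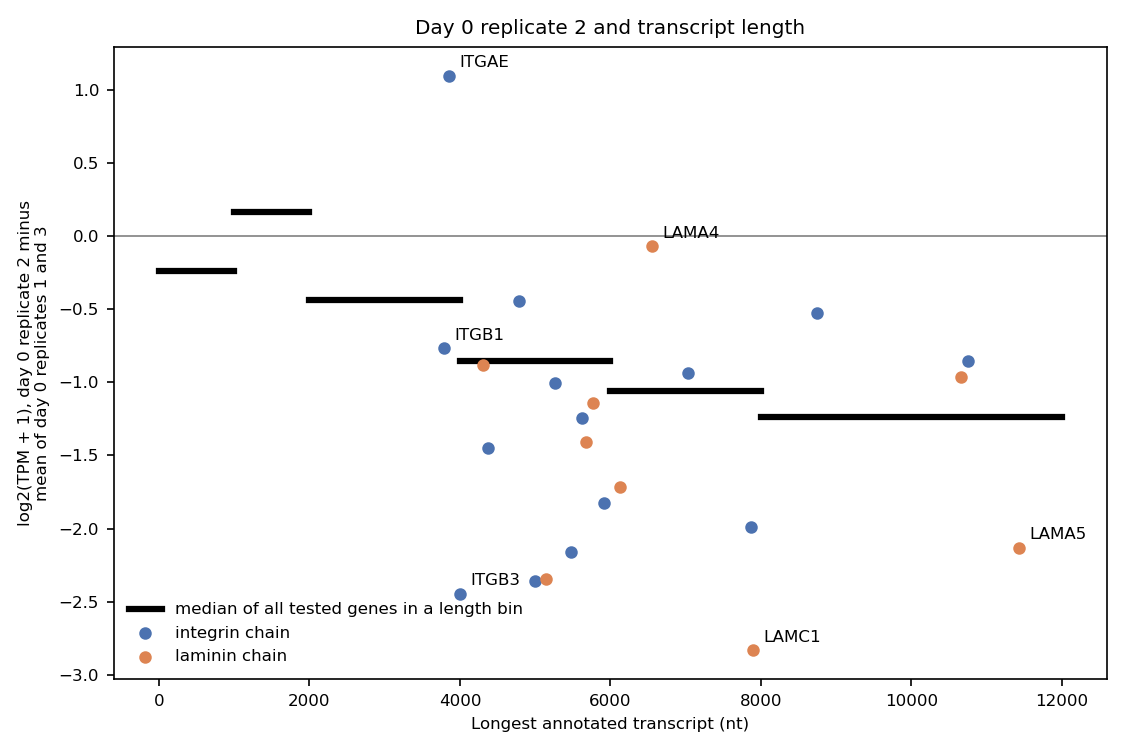
Difference of log2(TPM + 1) between day 0 replicate 2 and the mean of day 0 replicates 1 and 3 (vertical axis) against the longest annotated transcript in nucleotides (horizontal axis), with points for the tested integrin and laminin chains and black bars for the median of all tested genes in a length bin. The bars stand at -0.24 up to 1000 nucleotides and 0.16 from 1000 to 2000, and go down from there to -1.23 above 8000, and 22 of the 23 chains lie below 0.

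The cells carried the markers of their label at all 3 days. All 6 epithelial markers were tested, with KRT8 at 413 to 2253 TPM and EPCAM at 25.5 to 109 TPM over the 9 libraries, and the mesenchymal marker VIM was at 881 to 2526 TPM. The summed epithelial markers were at 3165 to 4409 TPM at day 0, 1079 to 1278 TPM at day 2 and 1158 to 1362 TPM at day 14. Leukocyte markers bear on ITGB2 and ITGAE, which are best known from white blood cells: PTPRC reached at most 0.176 TPM, CD3E and TYROBP were listed at 0 in all libraries, and of 10 markers CD68 alone passed the filter, at 21.3 to 68.6 TPM. The summed leukocyte markers, mostly CD68, were at 38.3 to 73.7 TPM at day 0, 22.8 to 41.2 TPM at day 2 and 42.6 to 58.0 TPM at day 14. None of the 6 platelet, 6 endothelial or 4 basal keratinocyte markers passed the filter, and of 9 fibroblast markers COL1A1 and COL3A1 passed, with DCN listed at 0.

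The remaining 14 chains stayed under the filter, between 0 and 0.973 TPM in every library. They were ITGA2B, ITGA4, ITGA7, ITGA8, ITGA9, ITGA11, ITGAL, ITGAM, ITGAX, ITGB6, ITGB7, LAMA1, LAMA2 and LAMB4. ITGA2B is the platelet alpha chain, and ITGAL, ITGAM and ITGAX are the leukocyte partners of ITGB2. ITGA7 is the laminin receptor chain of muscle and had the highest value among them, 0.973 TPM.

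Among the expressed chains the order of levels was led by ITGB1, ITGA3 and ITGB5 at every day. ITGB1, the beta chain shared by most matrix receptors, averaged 240 ± 67.8 TPM at day 0, 277 ± 7.86 TPM at day 2 and 328 ± 12.2 TPM at day 14 (SD, n = 3 each). The leading alpha chain was ITGA3 on each day, while LAMA5 and LAMB1 led the laminins. LAMA5 averaged 55.1 ± 33.7, 117 ± 19.2 and 88.4 ± 13.0 TPM at days 0, 2 and 14, and LAMB1 averaged 63.6 ± 24.9, 88.3 ± 2.37 and 81.2 ± 20.4 TPM (SD, n = 3 each), so at days 0 and 14 they lay within their spread of each other.

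**Figure D2:**
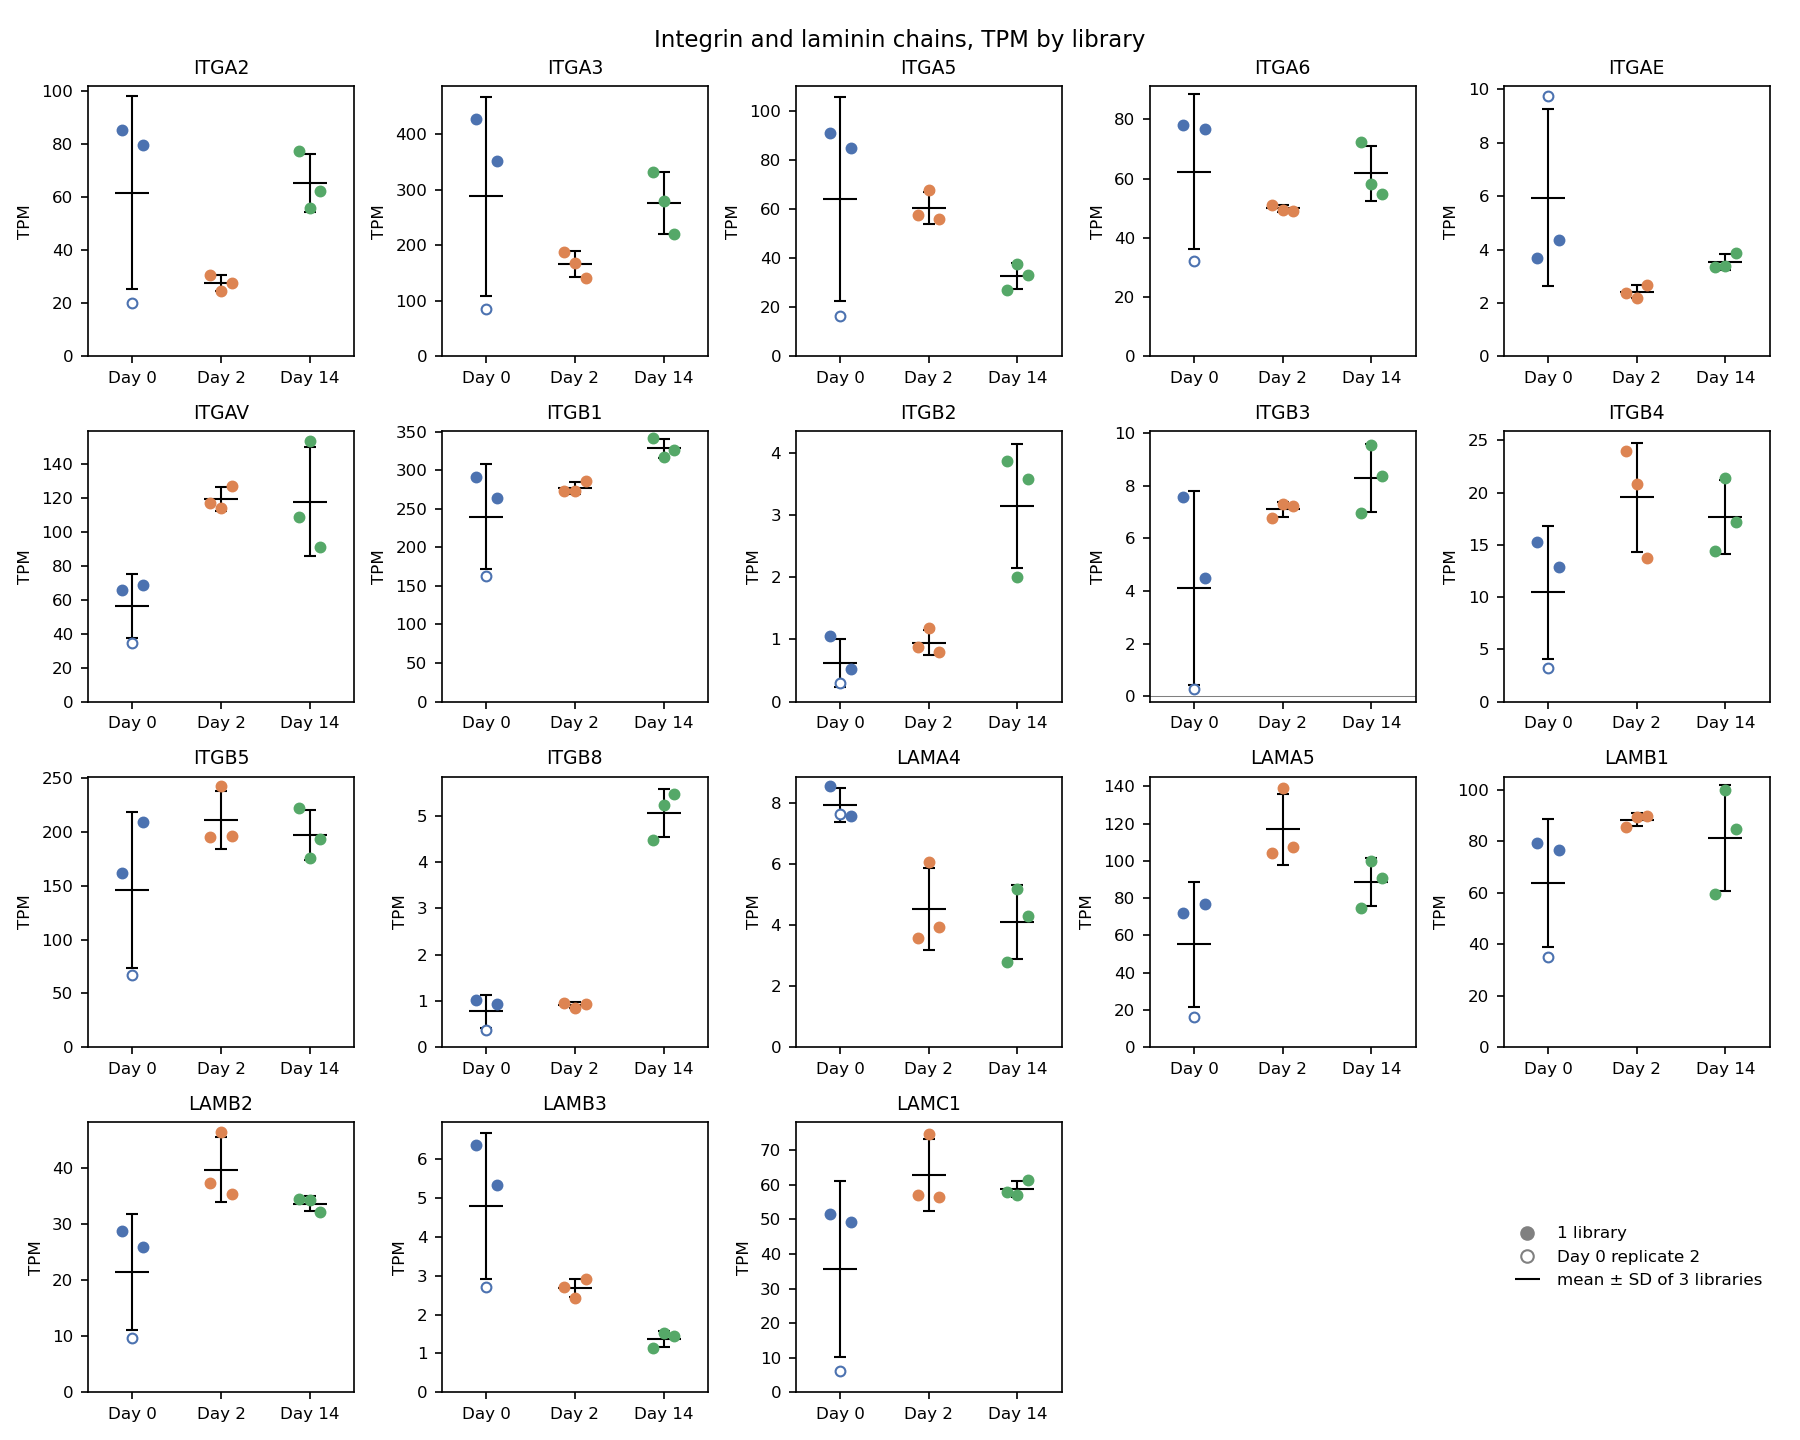
TPM of 18 integrin and laminin chains (1 panel a gene, vertical axes from 0 or just below it) by day, with 1 point a library, an open point for day 0 replicate 2 and the mean ± SD of 3 libraries. The day 14 points of ITGB8, at 4.48 to 5.48 TPM, lie above all others, and the day 14 points of LAMB3, at 1.13 to 1.54 TPM, lie below all others.

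Of the alpha and beta chains of laminin-332, LAMB3 was called lower in the fit of all 9 libraries, and LAMA3 in other settings, the fit without day 0 replicate 2 among them. LAMB3, its beta chain, was at 6.35, 2.71 and 5.32 TPM in replicates 1, 2 and 3 of day 0, at 2.71, 2.44 and 2.90 TPM at day 2 and at 1.13, 1.54 and 1.44 TPM at day 14. Every day 14 library lay below every library of the other days, while the day 2 libraries overlapped day 0 replicate 2. In RNA from whole cultures, fewer cells that express a gene and less of its RNA per cell cannot be told apart. LAMB3 fell by 1.23 ± 0.25 on the log2 scale at day 14 against day 0 (adjusted p = 0.00727), and the change was -1.53 without day 0 replicate 2 (adjusted p = 0.000219). Day 2 against day 0 gave -0.60 ± 0.25 (adjusted p = 0.105), and without that library it was -0.89 (adjusted p = 0.00176). In a fit of only the day 14 and day 2 libraries, LAMB3 was lower at day 14 by a log2 change of -0.64 ± 0.13 (adjusted p = 0.0319), which the fit of all 9 libraries did not call (adjusted p = 0.236).

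LAMA3, the alpha chain, stayed between 1.84 and 5.28 TPM. It passed the test in none of the 3 comparisons in the fit of all 9 libraries with nothing else changed. Its change at day 14 against day 0 was -0.84 without day 0 replicate 2 (adjusted p = 0.0177) and -1.31 with a trend on transcript length removed (adjusted p = 0.00164).

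Shares within a library set each chain against chains of its own class. LAMA3 made up 5.48%, 7.95% and 5.88% of the summed laminin alpha TPM in day 0 replicates 1, 2 and 3, 2.78%, 3.30% and 2.34% at day 2, and 2.33%, 2.63% and 2.45% at day 14. LAMB3 made up 5.54%, 5.72% and 4.92% of the laminin beta TPM at day 0, 2.15%, 1.76% and 2.26% at day 2, and 1.19%, 1.13% and 1.22% at day 14. For both LAMA3 and LAMB3, all day 0 libraries, replicate 2 among them, were above all libraries of days 2 and 14. The LAMA3 share depends on LAMA5 too, which made up 62.6% to 94.2% of the laminin alpha TPM and was at 16.2 TPM in day 0 replicate 2. In TPM, LAMA3 overlapped between day 0 and day 2, with a log2 change of -0.10 (adjusted p = 0.831). These shares are given as values with no test; an exact permutation test of 3 libraries against 3 could not go below 0.1.

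**Figure D3:**
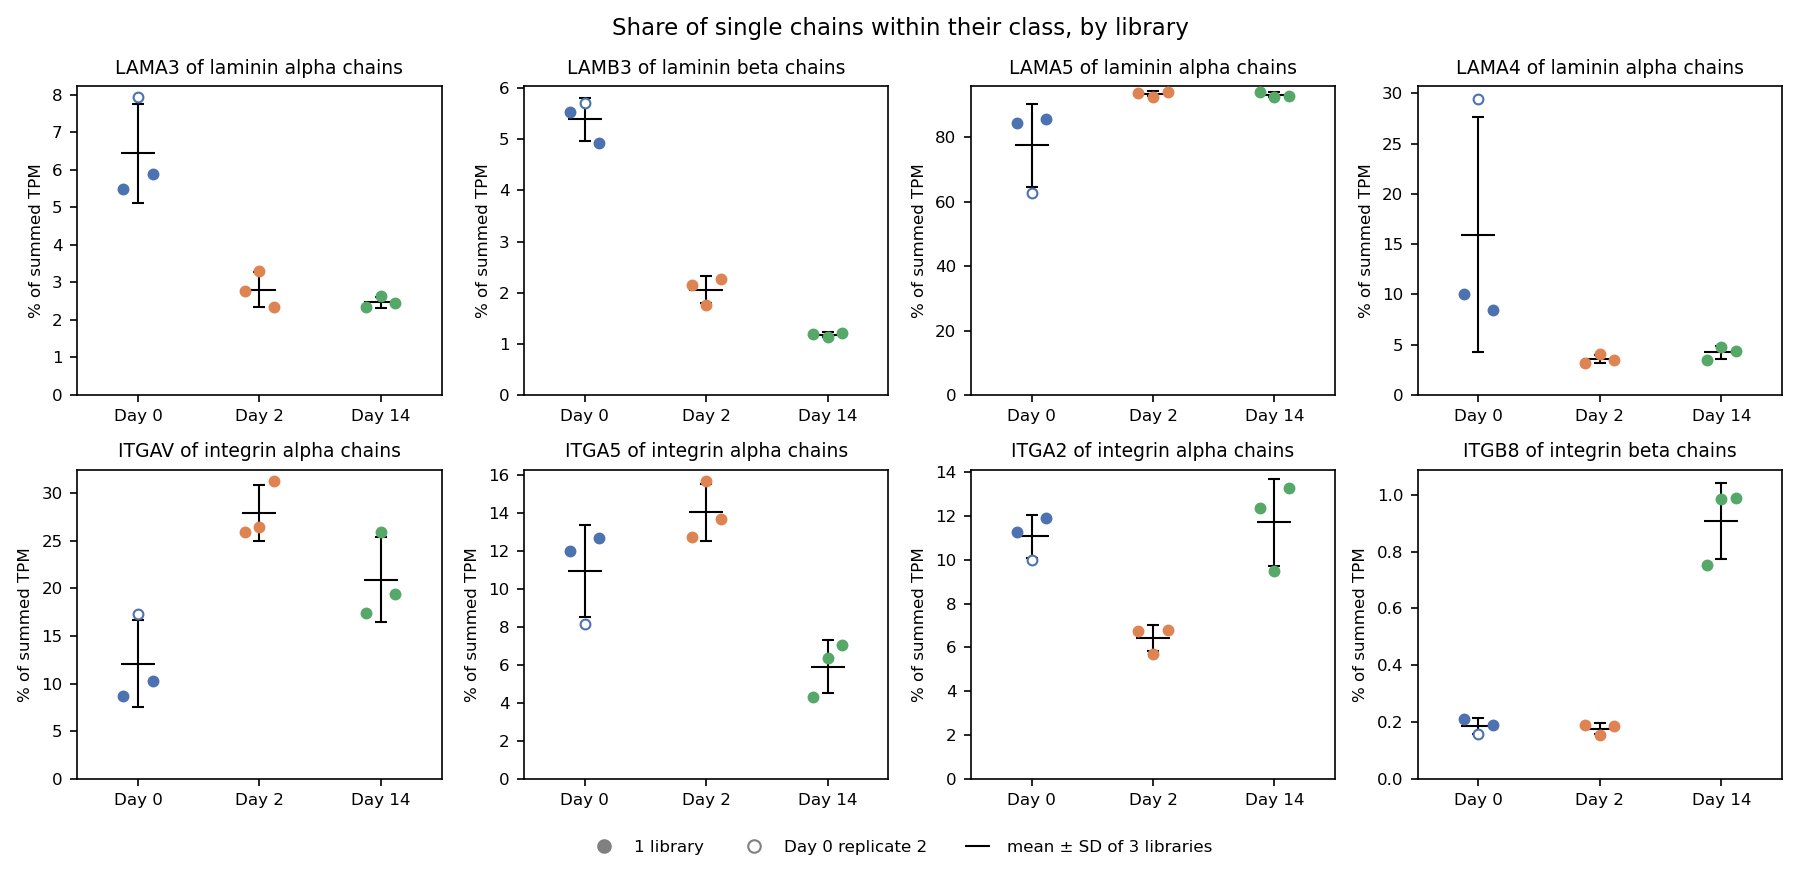
Share of a single chain in the summed TPM of its class, in percent, for 8 chains by day, with 1 point a library, an open point for day 0 replicate 2 and the mean ± SD of 3 libraries. LAMA3 and LAMB3 had all 3 day 0 libraries above the later days, and the LAMB3 share was 1.13% to 1.22% at day 14.

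The sequence before the start sites is shown for LAMA3 and LAMB3 of laminin-332 and for ITGB8, the chain with the largest called rise. LAMA3 was called in none of the comparisons in the fit of all 9 libraries with nothing else changed. RefSeq entries (GRCh38.p14, not the hg19 build of the deposited table) were found for 26 of the 37 chains, as 33 windows of 250 bases upstream of a start, and ITGB2 and ITGA3 had none. The motifs searched on both strands were ACGTG, the core bound by hypoxia-inducible factors, and TGANTCA, the core bound by AP-1 factors, which can share the letters TG although no window here held both motifs. They were picked after values had been seen. Capitals mark matches to TGANTCA; the windows are LAMA3 at chr18:23872770-23873019 on the plus strand, the third LAMB3 start at chr1:209651375-209651624 on the minus strand and ITGB8 at chr7:20330650-20330899 on the plus strand.
LAMA3: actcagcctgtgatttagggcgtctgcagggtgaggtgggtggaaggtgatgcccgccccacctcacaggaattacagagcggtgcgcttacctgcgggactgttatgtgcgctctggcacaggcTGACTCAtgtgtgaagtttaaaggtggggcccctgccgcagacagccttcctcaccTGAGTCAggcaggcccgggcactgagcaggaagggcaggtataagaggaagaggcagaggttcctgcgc
LAMB3: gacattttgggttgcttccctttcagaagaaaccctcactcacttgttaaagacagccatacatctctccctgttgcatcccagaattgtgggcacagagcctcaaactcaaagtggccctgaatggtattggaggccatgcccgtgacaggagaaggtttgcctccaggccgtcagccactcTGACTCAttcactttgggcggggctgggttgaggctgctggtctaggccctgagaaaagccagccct
ITGB8: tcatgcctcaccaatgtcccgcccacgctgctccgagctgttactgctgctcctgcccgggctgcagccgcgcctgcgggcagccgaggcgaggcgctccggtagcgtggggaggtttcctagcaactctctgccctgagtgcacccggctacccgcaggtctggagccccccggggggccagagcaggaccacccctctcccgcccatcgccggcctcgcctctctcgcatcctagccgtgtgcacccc
TGANTCA was found in 2 of the 33 windows, those of LAMA3 (125 and 69 bases before the start) and of the third LAMB3 start (67 bases before it), against 6.57% of 35116 promoter windows of the same length. ACGTG was found in 3 of the 33 windows, belonging to ITGA6 and ITGA11, against 18.5% of all windows. The windows of ITGB8 and of the first and second LAMB3 starts held neither motif. A match describes letters and is not a site of binding.

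LAMA4, an alpha chain known from vessel and muscle basement membranes, was the other laminin called in the fit of all 9 libraries with nothing else changed. It was at 8.56, 7.63 and 7.57 TPM in replicates 1, 2 and 3 of day 0, at 3.55, 6.05 and 3.93 TPM at day 2 and at 2.78, 5.18 and 4.28 TPM at day 14. All day 0 libraries were above all later ones, and the later days overlapped. LAMA4 fell by 0.84 ± 0.25 at day 14 against day 0 (adjusted p = 0.0293), with -0.86 without day 0 replicate 2 (adjusted p = 0.0248). At day 2 against day 0 the change was -0.72 ± 0.25 (adjusted p = 0.055), or -0.74 without that library (adjusted p = 0.0437). The day 14 call was lost without day 0 replicate 1 (adjusted p = 0.0664), day 0 replicate 3 (0.0527), day 14 replicate 1 (0.0951) or day 14 replicate 3 (0.0682), with no filter (0.051) and in the fit of only these days (0.0628).

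Of the chains of LAMA5-type laminins, none was called lower in any of the 3 comparisons, with or without day 0 replicate 2. LAMA5, the alpha chain of most adult basement membranes, was at 72.1, 16.2 and 76.9 TPM in replicates 1, 2 and 3 of day 0, at 104, 139 and 107 TPM at day 2 and at 74.4, 100 and 90.9 TPM at day 14. LAMB2, a beta chain of the same laminins, was at 28.7, 9.67 and 26.0 TPM at day 0, at 37.4, 46.4 and 35.5 TPM at day 2 and at 34.5, 34.4 and 32.2 TPM at day 14. For both genes each day 2 library was above each day 0 library. With all libraries the day 2 change against day 0 was 1.34 ± 0.52 for LAMA5 (adjusted p = 0.0798) and 0.99 ± 0.36 for LAMB2 (adjusted p = 0.067). Both were called higher without day 0 replicate 2, at 0.63 ± 0.17 (adjusted p = 0.0177) and 0.52 ± 0.13 (adjusted p = 0.0149). Both were also called higher with all 9 libraries and the length trend removed, at 0.73 (adjusted p = 0.0482) and 0.63 (adjusted p = 0.0125). LAMB1, the more abundant beta chain, was at 79.3, 34.8 and 76.6 TPM at day 0, at 85.6, 89.5 and 89.9 TPM at day 2 and at 59.3, 99.7 and 84.6 TPM at day 14. LAMC1, the gamma chain of most laminins, was at 51.5, 6.20 and 49.1 TPM at day 0, at 57.1, 74.6 and 56.6 TPM at day 2 and at 57.9, 57.1 and 61.5 TPM at day 14. Neither LAMB1 nor LAMC1 passed the test in any of the 3 comparisons, with or without day 0 replicate 2. LAMC3, the least abundant tested gamma chain, stayed between 0.676 and 4.96 TPM. It was called in no comparison in the fit of all 9 libraries with nothing else changed. At day 2 against day 0 it was called lower without day 0 replicate 2, with a log2 change of -0.92 (adjusted p = 0.0115), and with the length trend removed, at -0.73 (adjusted p = 0.04997).

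Of the laminin-binding alpha chains, ITGA3 and ITGA6 were expressed. ITGA3, the main epithelial receptor chain for laminin-332 and LAMA5-type laminins, was at 428, 86.1 and 352 TPM in replicates 1, 2 and 3 of day 0, at 188, 169 and 142 TPM at day 2 and at 332, 279 and 220 TPM at day 14. Each day 14 library was above each day 2 library, and day 0 replicates 1 and 3 were above both days. ITGA6, which pairs with ITGB4 in hemidesmosomes, was at 78.2, 32.2 and 76.6 TPM at day 0, at 51.1, 49.4 and 49.1 TPM at day 2 and at 72.4, 58.2 and 54.9 TPM at day 14. Neither was called with all 9 libraries unless the length trend was removed, which gave lower calls for ITGA6 against day 0 at day 2 (adjusted p = 0.0151) and day 14 (adjusted p = 0.0278). When day 0 replicate 2 was left out, both fell at day 2 against day 0, ITGA3 by 1.23 ± 0.20 (adjusted p = 0.00207) and ITGA6 by 0.62 ± 0.13 (adjusted p = 0.00588). In the fit of only days 14 and 2, ITGA3 was higher at day 14, with a log2 change of 0.72 ± 0.18 (adjusted p = 0.0429). For this comparison the adjusted p of ITGA3 was 0.0254 without day 0 replicate 2 and 0.518 with all 9 libraries.

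The collagen-binding chain ITGA2 followed the same order of days. It was at 85.4, 20.0 and 79.8 TPM in replicates 1, 2 and 3 of day 0, at 30.5, 24.7 and 27.7 TPM at day 2 and at 77.3, 56.1 and 62.4 TPM at day 14. All day 14 libraries were above all day 2 libraries, and day 0 replicates 1 and 3 were above both. The rise at day 14 against day 2 was 1.20 ± 0.15 in the fit of only these days (adjusted p = 0.0167), against an adjusted p of 0.243 with all 9 libraries. Without day 0 replicate 2 the change at day 2 against day 0 was -1.55 ± 0.16 (adjusted p = 0.000287). ITGA1, another collagen receptor chain, ran at a far lower level, between 0.240 and 1.89 TPM. It too was higher at day 14 than at day 2 in the fit of only these days, by 0.85 ± 0.15 (adjusted p = 0.0241). With all 9 libraries the adjusted p of ITGA1 was 0.129. ITGA10, a collagen receptor chain of cartilage, stayed between 0.290 and 2.34 TPM and was called in none of the 3 comparisons with or without day 0 replicate 2, but was called lower at day 14 against day 0 with the length trend removed (adjusted p = 0.0391). Since the strand setting was not given, reads of any chain and of an antisense partner cannot be told apart. RefSeq lists antisense genes for ITGA2, ITGA6, LAMA4 and LAMA5, and these are not put forward as a full list for the chains.

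Of the Arg-Gly-Asp-binding chains, ITGAV rose against day 0, and ITGA5 was called lower at day 14 in fits without day 0 replicate 2 and with the length trend removed. ITGAV, which pairs with ITGB1, ITGB3, ITGB5, ITGB6 or ITGB8 and binds vitronectin and latent TGF-beta, was at 66.0, 34.6 and 68.5 TPM in replicates 1, 2 and 3 of day 0, at 117, 114 and 127 TPM at day 2 and at 109, 153 and 91.0 TPM at day 14. Every library of days 2 and 14 was above every day 0 library. ITGAV rose 2.19-fold at day 2 against day 0, a log2 change of 1.13 ± 0.29 (adjusted p = 0.0201), and 2.11-fold at day 14 against day 0, a log2 change of 1.08 ± 0.29 (adjusted p = 0.0225). Without day 0 replicate 2 these were 0.82 (adjusted p = 0.0121) and 0.77 (adjusted p = 0.0157). The day 2 call was lost without day 2 replicate 1 (adjusted p = 0.0593), replicate 2 (0.0536) or replicate 3 (0.0691). The day 14 call was lost without day 14 replicate 1 (0.0535) or replicate 2 (0.0815), with median-ratio scaling (0.12), with the length trend removed (0.124) and in the fit of only these days (0.0694). ITGAV made up 12.1 ± 4.58% of the integrin alpha TPM at day 0, 27.9 ± 2.92% at day 2 and 20.9 ± 4.44% at day 14 (SD, n = 3 each). Day 0 replicate 2 was at 17.3%, close to day 14 replicate 1 at 17.4%, and the day 0 mean without it was 9.47%.

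ITGA5, the alpha chain of the fibronectin receptor, was at 91.0, 16.3 and 84.9 TPM in replicates 1, 2 and 3 of day 0, at 57.6, 67.8 and 55.8 TPM at day 2 and at 27.1, 37.6 and 33.0 TPM at day 14. Each day 14 library was below each day 2 library and below day 0 replicates 1 and 3, but above day 0 replicate 2. It fell by 0.88 ± 0.15 at day 14 against day 2 in the fit of only these days (adjusted p = 0.0232). The fit of all 9 libraries did not call this change (adjusted p = 0.456). Against day 0 the change at day 14 was -0.63 ± 0.56 with all libraries (adjusted p = 0.405) and -1.42 ± 0.15 without day 0 replicate 2 (adjusted p = 0.00042). With all 9 libraries and the length trend removed it was -1.17 (adjusted p = 0.0363). At day 2 against day 0 even its sign turned on that library, at 0.25 with it and -0.54 without it (adjusted p = 0.761 and 0.023). The ITGA5 share of the integrin alpha TPM was 4.34%, 6.35% and 7.04% in the day 14 libraries, against 8.16% to 15.7% in the libraries of days 0 and 2.

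ITGAE, the alpha chain that pairs with ITGB7 and binds E-cadherin on epithelial cells, was at 3.69, 9.75 and 4.36 TPM in replicates 1, 2 and 3 of day 0, at 2.37, 2.19 and 2.68 TPM at day 2 and at 3.33, 3.40 and 3.86 TPM at day 14. The day 2 libraries were below all others, and day 0 replicate 2 was far above the rest. It fell by 0.92 ± 0.29 at day 2 against day 0 (adjusted p = 0.0436), and by 0.56 ± 0.13 without day 0 replicate 2 (adjusted p = 0.00947). This call was kept in 9 of 22 alternatives, and was lost without any 1 of the day 2 libraries (adjusted p = 0.112, 0.12 and 0.0903) or of the day 14 libraries (0.0636, 0.0667 and 0.0659). Its partner ITGB7 was under the filter, and its ligand CDH1 was at 8.24 to 35.5 TPM.

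Among the beta chains the largest change was that of ITGB8, which pairs with ITGAV alone and is known for activating latent TGF-beta. ITGB8 was at 1.02, 0.367 and 0.925 TPM in replicates 1, 2 and 3 of day 0, at 0.955, 0.842 and 0.941 TPM at day 2 and at 4.48, 5.24 and 5.48 TPM at day 14. All day 14 libraries were above all others, and day 2 lay within the range of day 0. ITGB8 rose 3.47-fold on the log2(TPM + 1) scale at day 14 against day 0, a log2 change of 1.79 ± 0.18 (adjusted p = 0.000474), or 1.62 without day 0 replicate 2 (adjusted p = 0.000138). Against day 2 it rose by 1.66 ± 0.18 (adjusted p = 0.0189), and in the fit of only these days the adjusted p was 0.00662. The call against day 0 was kept in 22 of 22 alternatives. That against day 2 was lost in the 9-library design without any 1 of the day 2 libraries (adjusted p = 0.105, 0.0951 and 0.175) or of the day 14 libraries (0.0691, 0.0786 and 0.0867), and with a pseudocount of 0.1 (0.0692). Its share of the integrin beta TPM was 0.754%, 0.985% and 0.987% at day 14, against at most 0.212% in the 6 earlier libraries.

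ITGB2, the beta chain of leukocyte integrins, was the other beta chain called. It was at 1.05, 0.299 and 0.524 TPM in replicates 1, 2 and 3 of day 0, at 0.871, 1.18 and 0.801 TPM at day 2 and at 3.86, 2.00 and 3.58 TPM at day 14. All day 14 libraries were above all earlier ones. ITGB2 rose by 1.35 ± 0.24 at day 14 against day 0 (adjusted p = 0.0042), and the change was 1.20 without day 0 replicate 2 (adjusted p = 0.00563). Against day 2 the change was 1.06 ± 0.24 with all 9 libraries (adjusted p = 0.0923) and the adjusted p was 0.0304 in the fit of only these days. Its alpha partners ITGAL, ITGAM and ITGAX were under the filter, and PTPRC and SPI1, which mark leukocytes, stayed at or below 0.176 and 0.0586 TPM in all libraries.

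None of the remaining beta chains was called in any comparison, with or without day 0 replicate 2. ITGB1 was at 292, 163 and 264 TPM in replicates 1, 2 and 3 of day 0, at 272, 273 and 286 TPM at day 2 and at 341, 317 and 326 TPM at day 14. The day 14 libraries were above all others, but the change against day 0 was 0.50 ± 0.22 (adjusted p = 0.113). ITGB5, a vitronectin receptor chain, was at 162, 66.7 and 209 TPM at day 0, at 196, 243 and 196 TPM at day 2 and at 222, 176 and 194 TPM at day 14. ITGB4, the hemidesmosome chain, was at 15.2, 3.24 and 12.9 TPM at day 0, at 24.0, 20.8 and 13.8 TPM at day 2 and at 14.4, 21.4 and 17.2 TPM at day 14. Apart from the low day 0 replicate 2, the days of both genes overlapped. ITGB3, whose product pairs with ITGAV, was at 7.59, 0.261 and 4.50 TPM at day 0, at 6.78, 7.31 and 7.23 TPM at day 2 and at 6.96, 9.57 and 8.37 TPM at day 14, and its low value in day 0 replicate 2 gave the day 0 group an SD of 3.68 TPM around a mean of 4.12.

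Counted over the 23 tested chains, few calls were made with all 9 libraries. At day 2 against day 0, 1 chain was called higher (ITGAV) and 1 lower (ITGAE), while 19.2% of all tested genes were called higher and 11.5% lower. At day 14 against day 0, 3 were higher (ITGAV, ITGB2 and ITGB8) and 2 lower (LAMA4 and LAMB3), against 27.5% and 6.72% of all tested genes. Between day 14 and day 2, 1 was higher (ITGB8) and 0 lower by limma, with 1 lower at an unadjusted p under 0.05, against 0.212% and 0.205% of all tested genes. The F test over the 3 days called 5 of the 23 chains, or 21.7%, against 35.4% of all tested genes.

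Without day 0 replicate 2 more chains were called, as were more genes overall. At day 2 against day 0, 3 chains were then higher and 10 lower, or 13.0% and 43.5% of the 23, against 24.7% and 23.6% of all tested genes. The lower ones included ITGA1, ITGA2, ITGA3, ITGA5, ITGA6, ITGAE, LAMA4, LAMB3 and LAMC3. For day 14 against day 0, 3 were higher and 5 lower (among them ITGA5, LAMA3, LAMA4 and LAMB3), against 34.6% and 14.5% of all tested genes. For day 14 against day 2, 6 were higher and 2 lower, against 23.5% and 3.86%. The fit of only days 14 and 2, which holds no day 0 library, called 5 higher (ITGA1, ITGA2, ITGA3, ITGB2 and ITGB8) and 2 lower (ITGA5 and LAMB3), against 15.1% and 2.69%. The fits of only day 2 and day 0, and of only day 14 and day 0, called 1 higher and 0 lower (2 lower at an unadjusted p under 0.05), against 13.6% and 8.34%, and 2 higher and 1 lower, against 16.6% and 4.09%. With a trend on transcript length removed from each library and all 9 kept, 3 chains were higher and 7 lower at day 2 against day 0, where 20.7% and 19.6% of all tested genes were called. That setting gave 2 higher and 6 lower at day 14 against day 0, against 18.4% and 18.3%, and 1 higher and 1 lower between day 14 and day 2, against 0.693% and 1.68%. Its falls were ITGA1, ITGA2, ITGA6, LAMA3, LAMA4, LAMB3 and LAMC3 at day 2 and ITGA5, ITGA6, ITGA10, LAMA3, LAMA4 and LAMB3 at day 14. The F test without day 0 replicate 2 called 16 of 23, or 69.6%, against 62.1% of all tested genes. The median change of the 9 tested laminins at day 14 against day 0 was 0.10 with all libraries and -0.47 without day 0 replicate 2, against medians of 0.44 and 0.25 over all tested genes. For the 14 tested integrins these were 0.49 and 0.14.

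**Figure D4:**
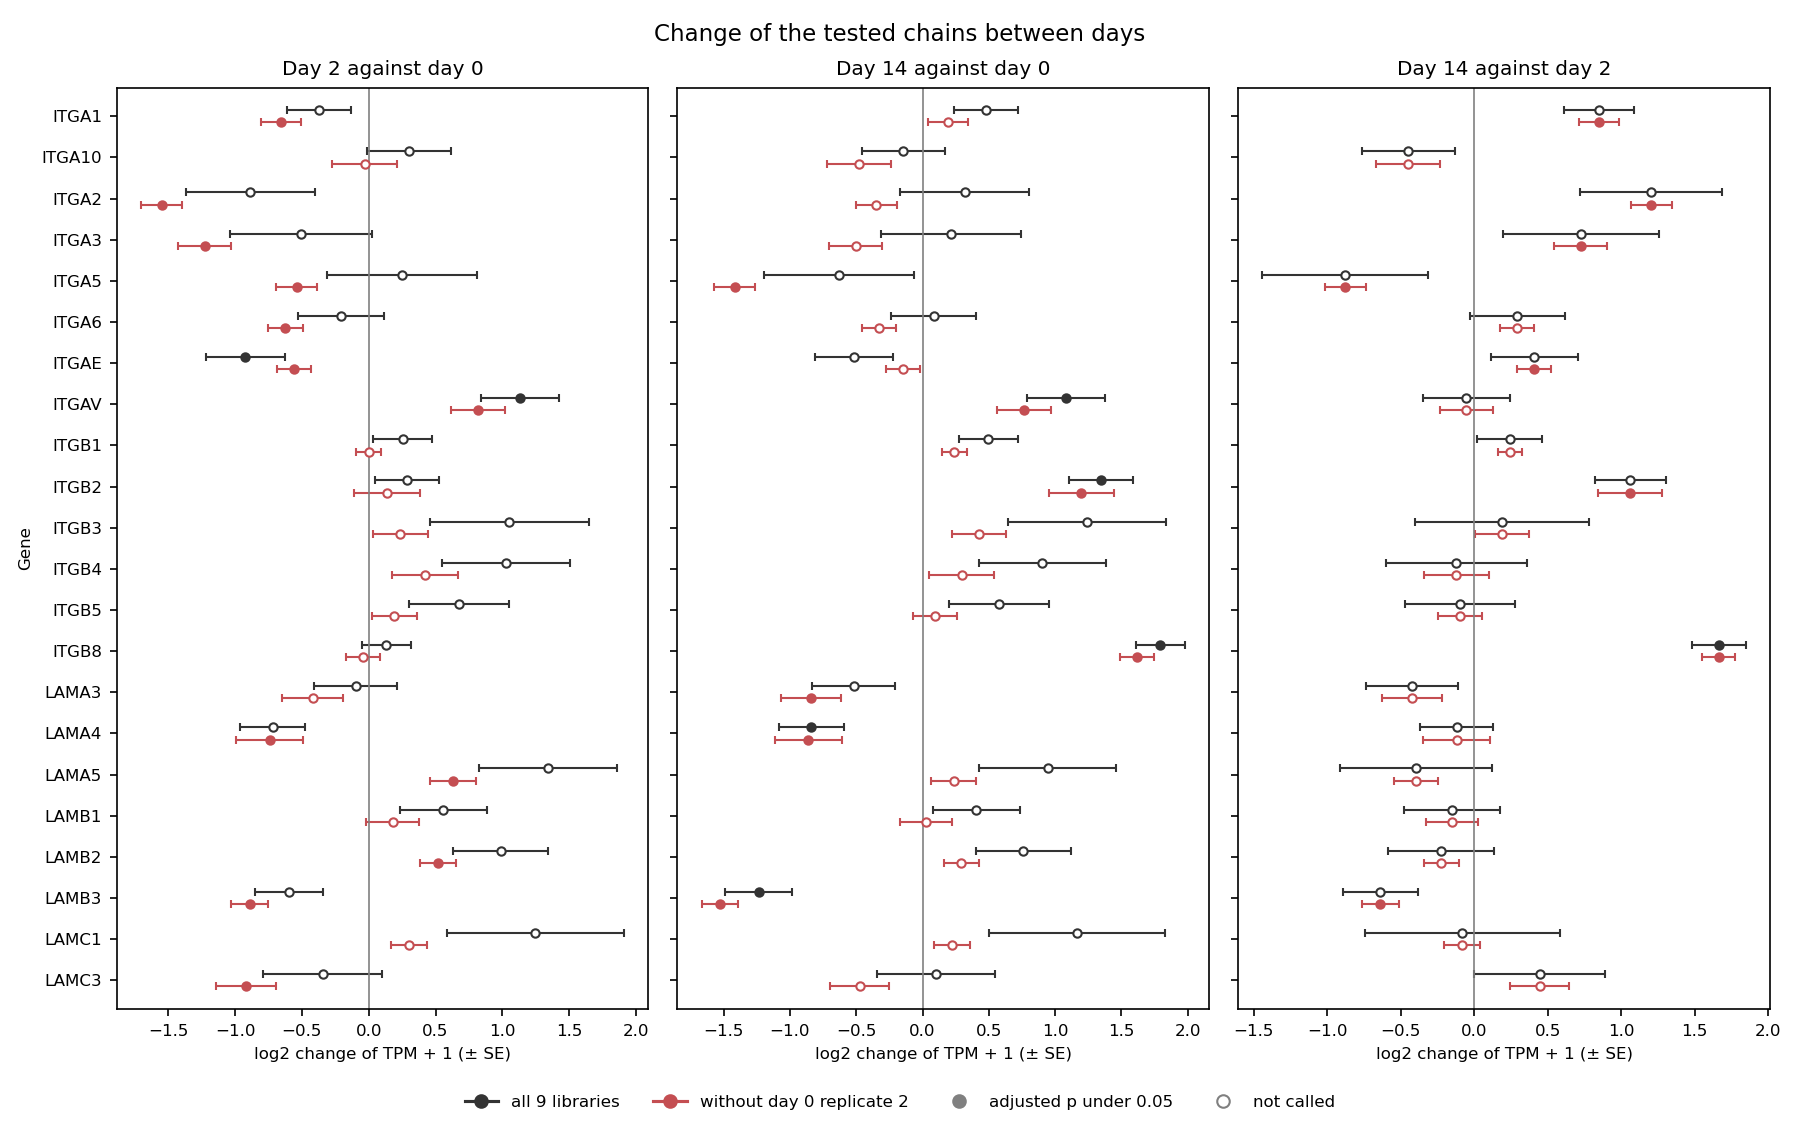
Change of log2(TPM + 1) ± SE for 22 of the 23 tested chains in the 3 comparisons of days, in black for all 9 libraries and in red without day 0 replicate 2, with filled points where the adjusted p was under 0.05. Leaving out that library narrows most error bars and shifts most changes against day 0 to lower values, and ITGB8 stands at 1.79 at day 14 against day 0.

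Genes that act beside these chains were counted in 5 lists. Among the adaptors that join integrins to actin and signalling, 29 of 31 were tested, and 6 rose and 1 fell at day 2 against day 0, where 19.2% of all tested genes were called higher and 11.5% lower. TES, a focal adhesion protein, had the largest rise and averaged 174 ± 9.18 TPM at day 2, against 32.7 ± 11.5 TPM at day 0, a log2 change of 2.44 (adjusted p = 0.000594). LPXN, a paxillin relative, rose by 1.55 (adjusted p = 0.0037) and CRKL, a signalling adaptor, by 1.49 (adjusted p = 0.041), while ITGB1BP1, which binds the ITGB1 tail and restrains integrin activation, fell, averaging 25.8 ± 0.256 TPM at day 2 and 56.3 ± 26.5 TPM at day 0 (adjusted p = 0.0287). At day 14 against day 0, 8 rose and 0 fell by limma, with 1 lower at an unadjusted p under 0.05, against 27.5% and 6.72% of all tested genes. TES rose by 2.78 (adjusted p = 0.000417), LIMS2, a partner of integrin-linked kinase, by 1.61 (adjusted p = 0.00163), and LPXN by 1.56 (adjusted p = 0.00353).

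The adaptor counts turned on single libraries. Without day 0 replicate 2, 8 rose and 12 fell at day 2 against day 0, where 24.7% and 23.6% of all tested genes were called. At day 14 it was 13 and 6, where 34.6% and 14.5% were. The 12 that were then lower included the abundant focal adhesion genes TLN1, VCL, ZYX, PXN, FLNA and ACTN1. Rises at day 2 numbered 3 without any 1 of the day 2 libraries or without day 14 replicate 3, and falls numbered 0 without any 1 of the day 2 libraries. Rises at day 14 numbered 13 without day 0 replicate 1 and 5 without any 1 of the day 14 libraries. For fits without a library other than day 0 replicate 2, the share of all tested genes called was not counted. Counts from those fits, here and in the lists below, cannot be set against such a share. Between day 14 and day 2, 0 were called with all libraries by limma, with 2 higher and 0 lower at an unadjusted p under 0.05. Without day 0 replicate 2, 14 rose there, where 23.5% of all tested genes were called higher.

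Of the hemidesmosome genes and other laminin receptors, 8 of 9 were tested. SDC1, a heparan sulphate proteoglycan of epithelial cells that binds laminin, was the 1 called at day 2, where it averaged 15.9 ± 1.90 TPM, against 84.1 ± 36.6 TPM at day 0. It fell by 2.22 at day 2 (adjusted p = 0.00223) and by 1.79 at day 14 (adjusted p = 0.00536). SDC4, a syndecan of focal adhesions, rose by 1.05 at day 14 against day 0 (adjusted p = 0.00836). With day 0 replicate 2 left out, 0 were higher and 2 lower at day 2, against 24.7% and 23.6% of all tested genes. At day 14 there were then 1 higher and 1 lower, against 34.6% and 14.5%. Without day 0 replicate 1 there were 1 higher at day 2 and 3 higher at day 14. With all libraries limma called 0 higher at day 2, and 2 were higher at an unadjusted p under 0.05. Over all tested genes 19.2% were called higher and 11.5% lower at day 2, and 27.5% and 6.72% at day 14, with all libraries. Between day 14 and day 2, limma called 0 with all libraries, and none reached an unadjusted p under 0.05. In that comparison 3 were called higher without day 0 replicate 2, against 23.5% of all tested genes.

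Of 12 basement membrane partners of laminins, 8 were tested, and COL4A5, a chain of type IV collagen, rose at day 2 by 0.81 (adjusted p = 0.0185) and at day 14 by 0.91 (adjusted p = 0.0105) against day 0. It averaged 0.667 ± 0.335 TPM at day 0, 1.88 ± 0.236 TPM at day 2 and 2.14 ± 0.571 TPM at day 14, and the day 2 call was lost without day 2 replicate 2 or 3. None fell with all libraries by limma, nor was any lower at an unadjusted p under 0.05. Over all tested genes 19.2% were called higher and 11.5% lower at day 2 against day 0, and 27.5% and 6.72% at day 14. Without day 0 replicate 2, 4 fell at day 14 against day 0, where 14.5% of all tested genes were called lower. They were AGRN, COL18A1, HSPG2 and NID1, which encode core matrix proteins of basement membranes. The same 4 were then lower at day 14 than at day 2, where 3.86% of all tested genes were.

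The list of other integrin ligands also held genes of TGF-beta and its binding proteins, which were not each checked for integrin binding. Of the 19 listed genes 15 were tested, and 3 rose at day 2 and 5 at day 14 against day 0. By limma 0 were called lower, with 0 and 1 lower at an unadjusted p under 0.05. Over all tested genes 19.2% and 27.5% were called higher, and 11.5% and 6.72% lower. TGFB2, a TGF-beta, rose by 1.95 at day 2 (adjusted p = 0.0108) and by 2.39 at day 14 (adjusted p = 0.00444), and averaged 6.31 ± 3.63 TPM at day 0, 24.3 ± 2.04 TPM at day 2 and 34.4 ± 11.1 TPM at day 14. THBS1, a matrix protein that activates latent TGF-beta, rose by 1.94 (adjusted p = 0.0182) and by 2.52 (adjusted p = 0.00593). LTBP3, which holds latent TGF-beta in the matrix, rose by 0.64 at day 2 (adjusted p = 0.025). CTGF, a matricellular integrin ligand, averaged 91.7 ± 25.8 TPM at day 0, 127 ± 43.7 TPM at day 2 and 762 ± 87.9 TPM at day 14, with log2 changes of 3.07 against day 0 (adjusted p = 0.000388) and 2.63 against day 2 (adjusted p = 0.0189). The rises numbered 6 at day 2 without day 0 replicate 3, 1 at day 2 without any 1 of the day 2 libraries and 3 at day 14 without any 1 of the day 14 libraries. Without day 0 replicate 2 the rises stayed at 3 and 5 and falls were 5 and 4. In that fit 24.7% and 34.6% of all tested genes were called higher, and 23.6% and 14.5% lower. Between day 14 and day 2, CTGF was the 1 call, and 2 genes were lower at an unadjusted p under 0.05. Once day 0 replicate 2 was left out, CTGF, CYR61, ICAM1 and TGFB1 were called higher there, and CDH1 and COL1A1 lower. Over all tested genes 23.5% were then called higher and 3.86% lower. The CTGF call against day 2 was lost without any 1 of the libraries of these days.

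Of the enzymes and inhibitors that process laminins and integrins, 9 of 11 were tested. PLAU, the urokinase that activates plasmin, averaged 394 ± 152 TPM at day 0, 41.4 ± 6.72 TPM at day 2 and 56.2 ± 17.9 TPM at day 14. It fell by 3.16 at day 2 (adjusted p = 0.000475) and by 2.76 at day 14 (adjusted p = 0.000944). TIMP1, a metalloproteinase inhibitor, fell by 0.87 at day 2 (adjusted p = 0.0296). ADAM17, a membrane sheddase, rose by 1.14 at day 2 (adjusted p = 0.0126) and by 1.75 at day 14 (adjusted p = 0.00206). At day 14 against day 0 its relative ADAM10 rose by 1.10 (adjusted p = 0.0166) and TIMP3, an inhibitor bound to the matrix, by 1.14 (adjusted p = 0.00183). In all 1 rose and 2 fell at day 2 and 3 rose and 1 fell at day 14, where 19.2% and 11.5%, and 27.5% and 6.72%, of all tested genes were called. The counts without day 0 replicate 2 were 2 and 3, and 3 and 2, against 24.7% and 23.6%, and 34.6% and 14.5%. At day 2 the rises numbered 2 without day 0 replicate 3 and the falls 1 without any 1 of the day 2 libraries, and at day 14 the rises numbered 1 without day 14 replicate 1. Between day 14 and day 2, limma called 0 with all libraries, with 3 higher and 0 lower at an unadjusted p under 0.05. Without day 0 replicate 2 it called 3 higher, against 23.5% of all tested genes.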

How the data were processed

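RNA of 9 PANC-1 samples was sequenced. The deposited values are TPM by gene symbol, which the authors made with Salmon, naming hg19, per the submitters' processing notes. For the Salmon version, the annotation and the strand setting, the entry is: not given in the sources used here. Since TPM keeps no depth, no counting interval is given, and MIR6723 held 16.2% to 32.6% of each library's TPM. Columns were matched to samples by day and replicate number. The members and lists were chosen with earlier results of these data known. Genes were tested where 3 or more of the 9 libraries reached 1 TPM, which 14144 did. The test was the two-sided one of limma 3.58.1 (R 4.3.3) on log2(TPM + 1), from 1 fit of the 3 days that used limma's intensity trend, at 0.05 after Benjamini-Hochberg adjustment; the script was checked on simulated data. Chains called in a comparison or with a mean of 5 TPM on any day are named with all values; of each partner list up to 3 rises and 3 falls per comparison are named. Alternatives changed the pseudocount, filter, scaling, moderation, array weights, replicate block or the libraries fitted. GENCODE transcripts (GRCh38) served only for lengths, with 92.3% of 27800 symbols matched. Figures were drawn with matplotlib 3.10.9. The values of 1 tested chain are not reported here, though it is in the counts.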

Additional observations from a re-analysis of the deposited data

How the results depend on the processing

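Of the called chains, ITGB2, ITGB8 and LAMB3 at day 14 against day 0 kept their call in 22 of 22 alternatives. The stricter filter, at a mean of 5 TPM, leaves them untested. Where the Results give no share of all tested genes for a setting, none was counted. Its counts of chains cannot then be set against all tested genes. Counts of chains called moved by over 1.5 times as follows. At day 2 against day 0, 1 higher became 2 with no filter, 2 with median-ratio scaling, 3 with quantile normalization, 3 with the length trend removed, 3 with array weights and 0 under a replicate block, and 0 to 3 without single libraries. At day 2, 1 lower became 0 with a mean of at least 5 TPM, 4 with median-ratio scaling, 4 with quantile normalization, 7 with the length trend removed, 11 with array weights, 0 with the replicate block and 0 in the fit of only the 2 days, and 0 to 10 without single libraries. At day 14 against day 0, 3 higher became 1 with a mean of at least 5 TPM and 6 with array weights. There, 2 lower became 1 with no filter, 1 with a mean of at least 5 TPM, 5 with median-ratio scaling, 6 with the length trend removed, 8 with array weights and 1 in the fit of only the 2 days, and 1 to 5 without single libraries. At day 14 against day 2, 1 higher became 0 with a pseudocount of 0.1, 0 with a mean of at least 5 TPM, 2 with quantile normalization, 6 with array weights, 0 with the replicate block and 5 in the fit of only the 2 days, and 0 to 6 without single libraries; 0 lower became 1 with quantile normalization, 1 with the length trend removed, 2 with array weights and 2 in the fit of only the 2 days, and 0 to 2 without single libraries.

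With array weights, which gave day 0 replicate 2 a weight of 0.0380, ITGA5 at day 2 against day 0 turned to -0.56, ITGA2 at day 14 against day 0 to -0.39 and ITGA3 there to -0.55. ITGA6 at day 14 against day 0 turned to -0.51 with median-ratio scaling, -0.49 with the length trend removed and -0.39 with array weights. Without single libraries ITGA5 at day 2 ran from -0.54 to 0.67. Same-numbered samples deviated with correlations of -0.0795 to 0.0154, so the replicate block is given only as an alternative; it ended the ITGAV calls at day 2 (adjusted p = 0.0509) and day 14 (0.0537) against day 0, that of ITGB8 against day 2 (0.0917) and that of ITGAE (0.0711). Rescaling without MIR6723, added after the data had been seen, changed no count. The cause of these changes was not tested. TPM without depth limits what can be said of chains near 1 TPM.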
